A study of Mus musculus with 8 samples.

Results

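The genes of the Notch pathway followed here were 3 receptors (Notch1, Notch2 and Notch3), 3 ligands (Jag1, Jag2 and Dll1) and 4 target genes (Hes1, Hey1, Hey2 and Heyl). They were taken by symbol, and all 10 were found among the 51822 gene symbols of the deposited files. RNA sequencing had been done on mouse osteoblastic cells cultured in osteogenic medium (ascorbic acid, dexamethasone and β-glycerophosphate). Control cultures received the vehicle DMSO and treated cultures received LAMZ (locamidazole, an aminoindazole derivative) at 1 μM, and RNA was collected on day 7 or day 14. Each of the 4 groups (day 7 control, day 7 LAMZ, day 14 control and day 14 LAMZ) had 2 libraries, 8 in all. The sample labels name the cells as MC3T3-E1, a clonal osteoblastic line derived from mouse calvaria, whereas the study's methods name calvarial cells. Nothing in the labels says whether the 2 libraries of a group came from separate cultures, so the p values measure the spread between these libraries, which may be technical.

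Notch signaling works between neighbouring cells. A ligand of the Jagged or Delta-like family on one cell binds a Notch receptor on another, ADAM proteases and then γ-secretase cut the receptor, and its intracellular part moves to the nucleus, where it joins the DNA-binding protein RBPJ and Mastermind-like coactivators and turns on genes such as the HES and HEY repressors. In bone, Notch signaling is known for holding osteoblast progenitors in an immature state, and Jag1 is a ligand expressed by cells of the osteoblast lineage.

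The values are RPKM, the reads of a gene divided by its length in kilobases and by the depth of its library. The libraries held 3463538 to 5832101 mapped reads by the number recovered from the values. At this depth, the members ranged from 592 to 836 reads per library for Notch2 down to 1 to 7 reads for Dll1 and 1 to 5 for Hey2. Markers of osteoblasts were present in every library, with a summed RPKM of 7091.6 to 15664.0 over 8 genes. Markers of macrophages were present in the control libraries as well: 12 genes, among them Lyz2, C1qa and Csf1r, summed to 472 to 616 RPKM at day 7 and to 1168.3 to 1193.2 RPKM at day 14. With LAMZ these 12 genes summed to 6.97 to 8.98 RPKM, and 6 of them were listed at 0 in both libraries of each day. Of the 12, 11 passed the test as lower at day 7 and 12 at day 14, beside 8.49% and 16.0% of all tested genes. All but Lyz2 and Cd68 reached 1 RPKM only in control libraries and entered the test only through these. Their test results therefore describe the levels and support nothing further. The 5 adipocyte markers summed to 57.4 RPKM in the second day 14 control library and to 10.2 RPKM in the first. In bulk RNA, fewer cells of a type and less RNA per cell cannot be told apart.

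**Figure D1:**
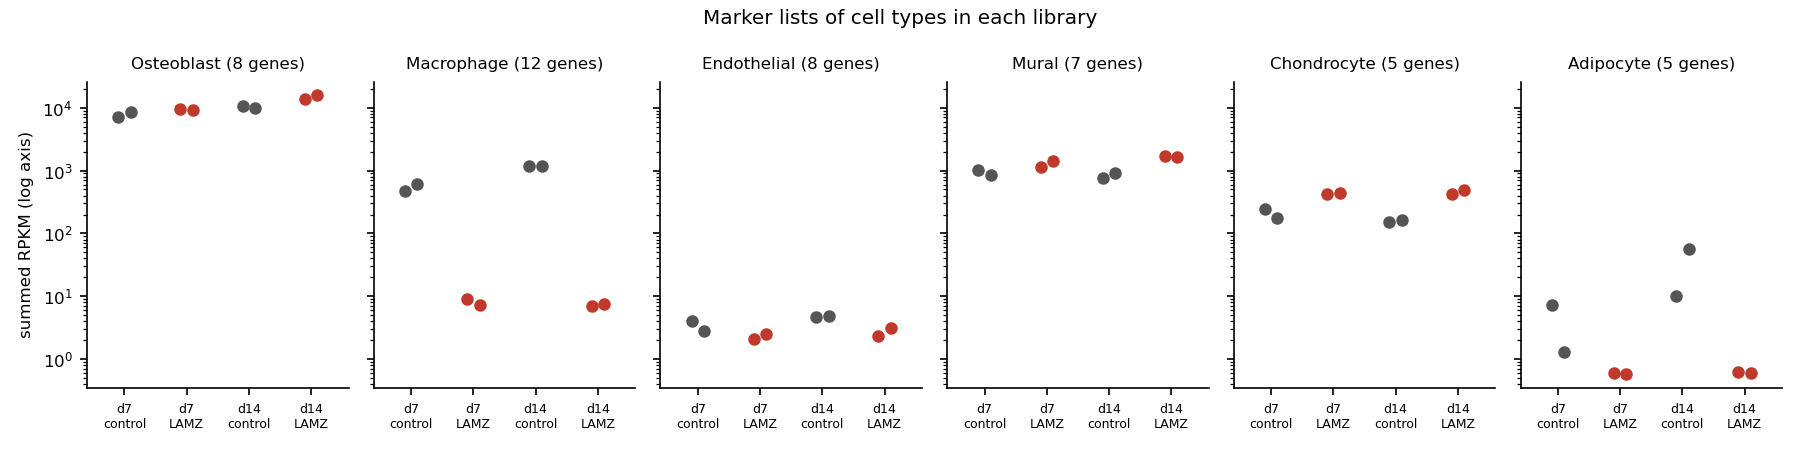
Summed RPKM of 6 lists of cell type markers in each of the 8 libraries (log axis); grey points are control and red points are LAMZ libraries, at day 7 (d7) and day 14 (d14). The macrophage list lay at 472 RPKM or above in the control libraries and at 8.98 RPKM or below with LAMZ, while the endothelial list did not exceed 4.79 RPKM in any library.

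Testing was limited to genes that reached 1 RPKM in 2 or more libraries, 12514 in all, and 8 of the 10 members were among them. Dll1 and Hey2 stayed under this level and were not tested. Heyl reached it only in control libraries and Jag2 only in LAMZ libraries. Counts over the tested members, and the tests of Heyl and Jag2, therefore describe them and support nothing further. All tests were made with limma on log2(RPKM + 1), except where limma voom, a weighted fit on the recovered reads, is named. Log2 differences below are on the log2(RPKM + 1) scale and understate the change of low genes. Those of voom are on reads scaled to depth, so their sizes cannot be set against the others. A gene was called when its adjusted p was under 0.05. Relabelling 2 libraries against 2 can reach no p lower than 0.333 (exact permutation, two-sided), so no such test was used for single genes.

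Jag1 was lower with LAMZ at both days, and on the log2(RPKM + 1) scale its difference was the largest of the 8 tested members on each. The receptor Notch1 was also lower at both days, and Notch3 and the target Heyl were called lower at day 14. No member was called higher on either day by limma on log2(RPKM + 1), while 2 of the 19 alternatives that tested Jag2 called it higher at day 14. At an unadjusted p under 0.05 there were 4 members at day 7 (Notch1, Notch3, Jag1 and Hes1, all lower), beside 28.0% of all tested genes, and 5 at day 14 (Notch1, Notch3, Jag1 and Heyl lower, Jag2 higher), beside 36.7% of all tested genes. At day 7, 2 of the 8 tested members were called lower, where 8.49% of all tested genes were, and none was called higher, where 4.35% of all tested genes were. At day 14, 4 were called lower, where 16.0% of all tested genes were, and none was called higher, where 6.96% of all tested genes were. The median difference over all tested genes was -0.08 at day 7 and -0.15 at day 14.

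The stretches upstream of Jag1, Notch1 and Notch3 are shown because these were the members called lower that have an entry in the RefSeq promoter table (GRCm38.p6). Of the 10 members, 7 had an entry, and Hes1, Hey1 and Heyl had none. These RefSeq starts need not match the gene spans printed below, which are from GENCODE. The Notch1 stretch lies inside the GENCODE span of its gene, and the Jag1 stretch partly overlaps that of Jag1. Each stretch is the 250 bases before the start site, read 5′ to 3′ on the strand of the gene, and capitals mark the GC box, GGGCGG or its other strand CCGCCC.
Jag1 (chr2:137116521-137116770, minus strand): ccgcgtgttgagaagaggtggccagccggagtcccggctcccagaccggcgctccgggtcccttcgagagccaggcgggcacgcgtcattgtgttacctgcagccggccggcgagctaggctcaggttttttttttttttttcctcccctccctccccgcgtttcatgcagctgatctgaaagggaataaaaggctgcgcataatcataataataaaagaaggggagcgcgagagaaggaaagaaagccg
Notch1 (chr2:26503823-26504072, minus strand): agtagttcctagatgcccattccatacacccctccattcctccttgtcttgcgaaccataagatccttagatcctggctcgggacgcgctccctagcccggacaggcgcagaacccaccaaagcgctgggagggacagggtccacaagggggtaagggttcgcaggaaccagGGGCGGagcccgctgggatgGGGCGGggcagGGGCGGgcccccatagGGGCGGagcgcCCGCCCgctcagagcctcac
Notch3 (chr17:32166891-32167140, minus strand): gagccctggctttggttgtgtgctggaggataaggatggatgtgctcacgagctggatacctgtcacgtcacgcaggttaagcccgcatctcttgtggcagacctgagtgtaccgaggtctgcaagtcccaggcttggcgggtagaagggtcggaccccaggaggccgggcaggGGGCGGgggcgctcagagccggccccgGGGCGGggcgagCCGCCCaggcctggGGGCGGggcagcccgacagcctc
The Jag1 stretch held no GC box, the Notch1 stretch held 5 and the Notch3 stretch held 4, and none of these overlapped another. Of 32851 promoters in the table, 32.7% held a GC box in the same 250 bases. The core of the RBPJ motif, TGGGAA or TTCCCA, was in 21.6% of these promoters and in 1 of the 8 starts listed for the members, that of Hey2. The E-box CACGTG, a motif to which HES and HEY family proteins can bind, was in 6.02% of these promoters and in 0 of the 8 starts.

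Of the receptors, Notch2 had the highest RPKM and Notch1 the lowest in every group. Notch1, a receptor broadly used in development (chr2:26457903-26516663, minus strand, GRCm38 as in GENCODE M21), stood at 3.50 and 3.77 RPKM in the day 7 control libraries and at 2.04 and 1.98 RPKM with LAMZ. At day 14 it stood at 3.19 and 3.09 RPKM in control and at 1.73 and 2.07 RPKM with LAMZ. All 4 LAMZ libraries were below all 4 control libraries. The mean was 1.81-fold lower with LAMZ at day 7, a difference of -0.62 ± 0.13 (SE, n = 2 per group; limma adjusted p = 0.0180), and 1.65-fold lower at day 14, a difference of -0.52 ± 0.13 (limma adjusted p = 0.0231). Both calls were near the threshold. Leaving out any 1 of the 4 libraries of day 7 raised the adjusted p of the day 7 difference to between 0.0537 and 0.0964, leaving out any 1 of the 4 of day 14 raised that of the day 14 difference to between 0.0560 and 0.125, and at day 14 median centring gave -0.32 (adjusted p = 0.125) and quantile normalization -0.31 (adjusted p = 0.135). The gene 0610009E02Rik overlaps Notch1 on the other strand and did not exceed 0.961 RPKM, and whether strand was used in counting is not stated in the sources used here.

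Notch3, a receptor known from mural cells of blood vessels (chr17:32120820-32166852, minus strand), stood at 8.67 and 9.26 RPKM in the day 7 control libraries and at 6.50 and 5.42 RPKM with LAMZ. Its day 14 levels were 9.82 and 7.59 RPKM in control and 4.39 and 5.40 RPKM with LAMZ. The LAMZ and control libraries did not overlap on either day. At day 14 the mean was 1.78-fold lower, a difference of -0.71 ± 0.16 (SE, n = 2 per group; limma adjusted p = 0.0151). At day 7 the difference was -0.52 ± 0.16 and missed the threshold (adjusted p = 0.0705), and the difference between the days was -0.19 ± 0.22 (adjusted p = 0.718), so the days were not shown to differ. The day 14 call was lost without the first control library (adjusted p = 0.0827), without the first LAMZ library (0.0947), after median centring (0.0703) and after quantile normalization (0.0634). Of 7 mural markers, 6 were tested and moved unevenly: Pdgfrb was lower at both days (-0.74 ± 0.11 at day 14, limma adjusted p = 0.00315), whereas Cspg4, Mcam, Acta2, Myh11 and Cnn1 were higher at day 14, and their part in the result for Notch3 was not tested.

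Notch2, a receptor of the osteoblast and osteoclast lineages (chr3:98013527-98150361, plus strand), had the highest RPKM of the 10 members in 3 of the 4 groups. It stood at 14.6 and 18.0 RPKM in day 7 control libraries, 15.1 and 14.9 with LAMZ at day 7, 13.8 and 15.3 in day 14 control libraries, and 9.97 and 13.9 with LAMZ at day 14. The LAMZ and control libraries overlapped on both days. The differences were -0.11 ± 0.17 at day 7 (limma adjusted p = 0.739) and -0.28 ± 0.17 at day 14 (adjusted p = 0.272). The sign at day 7 turned to 0.01 after median centring. Notch2 made up 51.5% to 58.9% of the summed receptor RPKM in control libraries and 61.9% to 66.8% with LAMZ, a description with no test.

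Among the ligands, Jag1 (chr2:137081456-137116644, minus strand) stood at 16.3 and 16.7 RPKM in the day 7 control libraries, next to Notch2, whose libraries it overlapped, at the top of the members. With LAMZ it stood at 6.76 and 7.25 RPKM. At day 14 the control libraries held 12.3 and 13.3 RPKM and the LAMZ libraries 5.12 and 4.15 RPKM. Every LAMZ library was below every control library, by more than the spread within any group. In recovered reads, the 2 libraries of a group summed to 696 and 388 at day 7 and to 737 and 292 at day 14, control before LAMZ.

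The mean of Jag1 was 2.36-fold lower with LAMZ at day 7, a difference of -1.13 ± 0.13 (SE, n = 2 per group; limma adjusted p = 0.00133). It was 2.77-fold lower at day 14, a difference of -1.30 ± 0.13 (limma adjusted p = 0.000362). Jag1 was called on both days in each of the 20 alternative analyses. The difference between the days was -0.17 ± 0.18 (adjusted p = 0.684). As a share of control, 42.4% of the Jag1 RPKM remained at day 7 and 36.1% at day 14.

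Jag2, the other Jagged ligand (chr12:112907819-112929776, minus strand), was low and stood the other way. It was at 0.389 and 0.752 RPKM in day 7 control libraries, 1.30 and 0.500 with LAMZ at day 7, 0.940 and 0.577 in day 14 control libraries, and 1.84 and 1.80 with LAMZ at day 14. The groups overlapped at day 7, and both LAMZ libraries were above both control libraries at day 14. The mean was 2.40-fold higher at day 14, from 47 reads in the 2 control libraries and 120 in the LAMZ libraries. The difference of 0.69 ± 0.26 missed the threshold (SE, n = 2 per group; limma adjusted p = 0.0894). It was called after quantile normalization (0.99, adjusted p = 0.0269) and in the weighted fit on the recovered reads, chosen after the data were seen (1.26 ± 0.37, limma voom adjusted p = 0.0141), and in none of the other 17 alternatives that tested the gene. At day 7 the difference was 0.25 ± 0.26 (limma adjusted p = 0.573), and without the first LAMZ library, in which Jag2 was highest that day, it was -0.06.

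The ratio of the 2 Jagged ligands was taken within each library. Jag1 exceeded Jag2 by 22.3-fold and 41.9-fold in the day 7 control libraries and by 13.1-fold and 23.1-fold in the day 14 control libraries. The ratio was 5.21 and 14.5 with LAMZ at day 7 and 2.78 and 2.30 with LAMZ at day 14. Jag2 was 2.32% to 6.99% of the summed ligand RPKM in the 4 control libraries and 26.2% and 30.0% in the day 14 LAMZ libraries. These ratios rest on 9 to 66 reads of Jag2 per library and were not tested.

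Dll1, a Delta-like ligand (chr17:15367354-15376872, minus strand), was near the floor of detection. It stood at 0.0629 and 0.274 RPKM in day 7 control libraries, 0.222 and 0.227 with LAMZ at day 7, 0.177 and 0.367 in day 14 control libraries, and 0.0813 and 0.0485 with LAMZ at day 14. A count of 3 reads corresponds to 0.122 to 0.205 RPKM for this gene. The 2 LAMZ libraries of day 14 held 3 reads together and the 2 control libraries 11, so no fold is given.

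**Figure D2:**
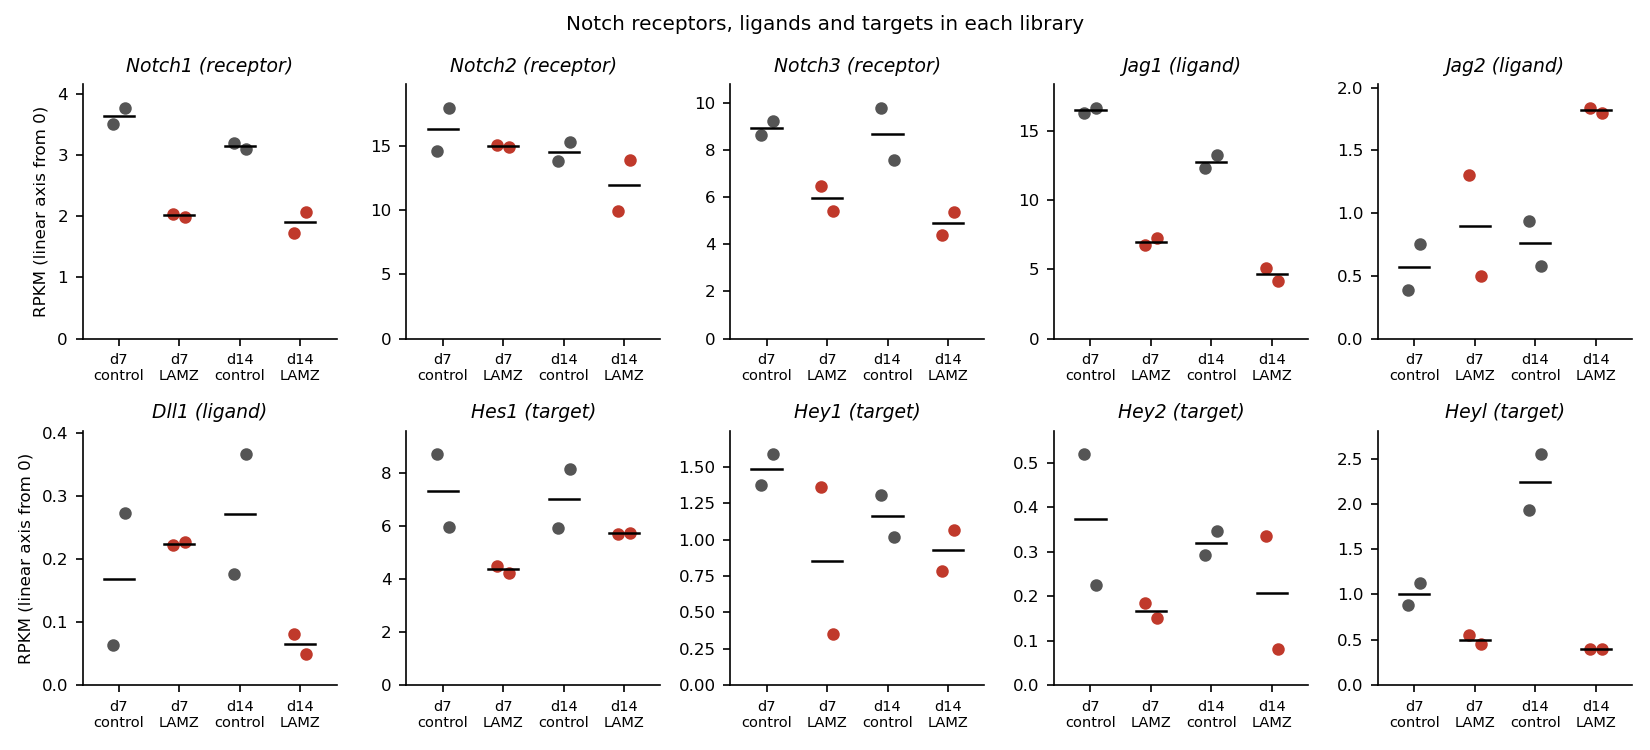
RPKM of the 10 members in each of the 8 libraries, on linear axes from 0 that differ between genes; grey points are control and red points are LAMZ libraries at day 7 (d7) and day 14 (d14), and the line is the mean of 2. Jag1 fell from 16.3 and 16.7 RPKM to 6.76 and 7.25 RPKM at day 7, and Heyl was highest in the day 14 control libraries at 1.93 and 2.55 RPKM.

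The 4 target genes encode basic helix-loop-helix repressors and differed in level and in response. Heyl (chr4:123233556-123249875, plus strand), a target known from Notch3-expressing mural and muscle cells, stood at 0.882 and 1.13 RPKM in day 7 control libraries and at 0.550 and 0.450 RPKM with LAMZ. The day 14 levels were 1.93 and 2.55 RPKM in control and 0.402 and 0.401 RPKM with LAMZ. The day 14 control libraries stood above all others, and the 4 LAMZ libraries below all 4 control libraries.

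At day 14, Heyl was 5.58-fold lower with LAMZ, 112 reads over the 2 control libraries against 22. It passed the filter only through its control libraries, so its calls describe these levels and are not further support. The difference of -1.20 ± 0.19 was called (SE, n = 2 per group; limma adjusted p = 0.00368) and was called in each of the 19 alternatives that tested the gene. At day 7 the mean was 2.01-fold lower, from 37 reads against 24, and the difference of -0.42 ± 0.19 missed the threshold (adjusted p = 0.204). The difference between the days was -0.79 ± 0.27 and also missed it (limma adjusted p = 0.213), so the larger value at day 14 was not shown to differ from that at day 7.

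Hes1, the most abundant of the target genes here (chr16:30064384-30067796, plus strand), stood at 8.72 and 5.95 RPKM in day 7 control libraries and at 4.49 and 4.24 RPKM with LAMZ. On day 14 the values were 5.94 and 8.14 RPKM in control and 5.72 and 5.73 RPKM with LAMZ. The LAMZ libraries were below the control libraries on both days, at day 14 by no more than the distance from 5.73 to 5.94 RPKM. The 2 control libraries of a day lay further apart than that. Neither difference passed the test, at -0.62 ± 0.19 on day 7 (limma adjusted p = 0.0726) and -0.24 ± 0.19 on day 14 (adjusted p = 0.393). The day 7 difference was called without the second control library (-0.86, adjusted p = 0.0360), and scaling all libraries to the same summed RPKM gave calls on both days (-0.86 and -0.56, adjusted p = 0.0129 and 0.0384).

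Hey1 and Hey2, the HEY genes known from the heart and vessels, were low. Hey1 (chr3:8663359-8667256, minus strand) stood at 1.38 and 1.59 RPKM in day 7 control libraries, 1.36 and 0.353 with LAMZ at day 7, 1.31 and 1.02 in day 14 control libraries, and 0.788 and 1.07 with LAMZ at day 14. These are 6 to 23 reads per library, and the second LAMZ library of day 7 stood below the rest. The differences were -0.47 ± 0.27 at day 7 (limma adjusted p = 0.303) and -0.17 ± 0.27 at day 14 (adjusted p = 0.692), and the latter turned to 0.02 and 0.08 under median centring and quantile normalization. Hey2 (chr10:30832359-30842801, minus strand) lay between 0.0803 and 0.520 RPKM, where 3 reads correspond to 0.202 to 0.340 RPKM. A change of Hey2 was not detectable at this depth.

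**Figure D3:**
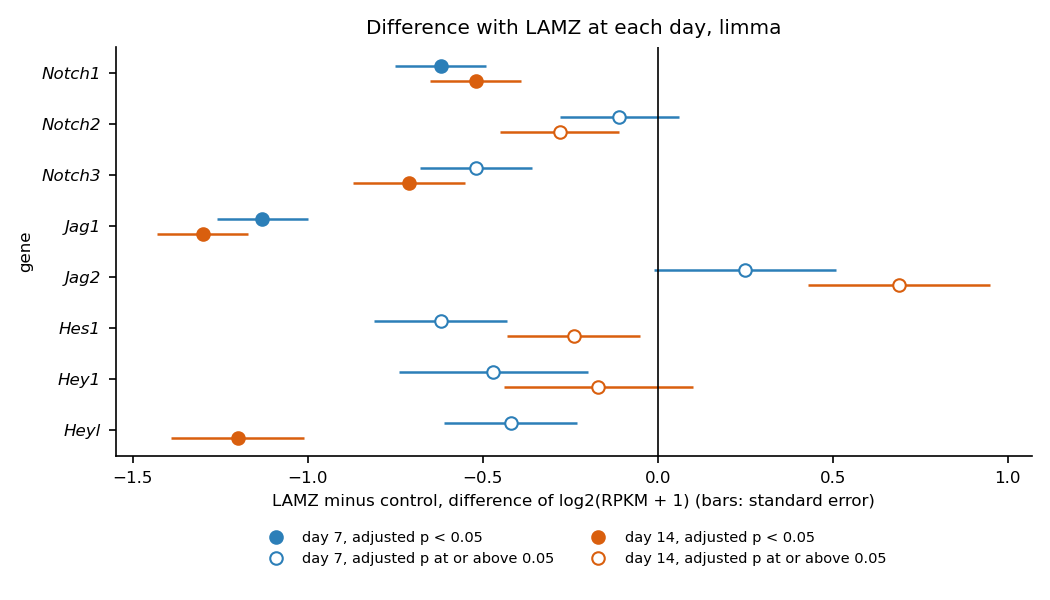
Difference of log2(RPKM + 1) between LAMZ and control libraries for the 8 tested members at day 7 (blue) and day 14 (orange), with bars of 1 standard error from limma; filled points had an adjusted p under 0.05. Jag1 lay at -1.13 and -1.30, Heyl at -0.42 and -1.20, and Jag2 was the only one of the 8 above 0, at 0.25 and 0.69.

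Without regard to the size of the gap, both LAMZ libraries were below both control libraries for 7 of the 10 members at day 7, where the same held for 35.9% of all tested genes. The exceptions were Notch2, Jag2 and Dll1. At day 14 it held for 6 of 10, where it held for 44.2% of all tested genes, and the exceptions were Notch2, Jag2, Hey1 and Hey2. The count at day 7 includes Hey2 and that at day 14 includes Dll1. Neither was tested, so they have no counterpart in these shares, and they rest on 1 to 5 and 1 to 7 reads per library. With 2 libraries per group such a separation is frequent over the whole table.

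The counts of members called between the days were near the shares of all tested genes. The difference of the LAMZ effect between the days was called for 0 of the 8 tested members, where 0.623% of all tested genes were called. At an unadjusted p under 0.05 it was 1 member, Heyl, beside 16.5% of all tested genes, and limma voom on the recovered reads called 0. From day 7 to day 14 in control, 0 members were called, where 4.86% of all tested genes were. Heyl and Jag1 had an unadjusted p under 0.05 there, beside 21.8% of all tested genes, with Heyl at 0.69 ± 0.19 (limma adjusted p = 0.0850) and Jag1 at -0.34 ± 0.13 (adjusted p = 0.162), and voom called 1 member, Heyl (1.12 ± 0.33, adjusted p = 0.0390).

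In LAMZ, the ligand Jag1 was the 1 member called from day 7 to day 14, where 14.4% of all tested genes were. It was lower, by -0.51 ± 0.13 on the log2 scale (limma adjusted p = 0.0324). Jag2 stood at 0.60 ± 0.26 (limma adjusted p = 0.150). Here too voom called more genes, 2822 beside 1797 by limma on log2(RPKM + 1). Among them were both Jag1 (-0.60 ± 0.16, limma voom adjusted p = 0.0113) and Jag2 (1.23 ± 0.36, adjusted p = 0.0202). Without the first or the second day 7 LAMZ library, or the second day 14 LAMZ library, the adjusted p was 0.109, 0.166 and 0.187. The LAMZ comparisons and the comparisons over time share libraries, so their values are given side by side and not as separate evidence.

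The order of the members also differed between the groups. In day 7 control libraries the mean RPKM ran from Jag1 (16.5) and Notch2 (16.3) over Notch3 (8.97), Hes1 (7.34), Notch1 (3.64), Hey1 (1.49) and Heyl (1.01) to Jag2 (0.571), Hey2 (0.373) and Dll1 (0.168). The libraries of Jag1 and Notch2, of Notch3 and Hes1, of Jag2 and Hey2 and of Hey2 and Dll1 overlapped, and those of the other neighbours did not. With LAMZ at day 14, Notch2 (11.9) was followed by Hes1 (5.73), Notch3 (4.89) and Jag1 (4.63), and the libraries of Notch3 and Jag1 overlapped. Per length, Notch1 (1.90) and Jag2 (1.82) were then at overlapping levels.

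Beyond the members, 61 further genes of the pathway were listed and 48 were tested. At day 7, 6 of the 48 were called lower and 4 higher (12.5% and 8.33%), beside 8.49% and 4.35% of all tested genes. The 4 higher included Bhlhe40 and Bhlhe41, which were listed with the HES family and are not shown here to be Notch targets. At day 14, 14 were called lower and 2 higher (29.2% and 4.17%), beside 16.0% and 6.96%. Their median difference was -0.21 at day 7 and -0.31 at day 14, beside -0.08 and -0.15 over all tested genes. Dlk1, Mfap5, Lfng, Maml2 and Tle2 were among those lower at both days, and Bhlhe40 was higher at both. The genes are described by role, from the cell surface to the nucleus.

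Of the other receptors and ligands, 4 of 8 were tested. Dlk1, a Delta-like protein that lacks the domain for classical Notch activation, stood at 10.0 and 9.54 RPKM in day 7 control libraries and at 3.73 and 3.83 RPKM with LAMZ. The values at day 14 were 8.59 and 5.28 RPKM in control and 2.76 and 3.26 RPKM with LAMZ. It was lower at both days, by -1.17 ± 0.19 (limma adjusted p = 0.00744) and -0.96 ± 0.19 (adjusted p = 0.00998). Mfap5, a microfibril glycoprotein that can bind Jagged1, had the largest fall in the list. It stood at 19.3 and 14.8 RPKM in day 7 control libraries and at 1.83 and 2.46 RPKM with LAMZ, and at 15.5 and 15.8 RPKM against 2.10 and 0.799 RPKM at day 14.

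The differences of Mfap5 were -2.52 ± 0.25 and -2.82 ± 0.25 at day 7 and day 14 (limma adjusted p = 0.000869 and 0.000257). Its relative Mfap2 was at 60.4 and 54.2 RPKM in day 14 control libraries and at 25.6 and 29.6 RPKM with LAMZ (-1.03 ± 0.13, adjusted p = 0.00144), while at day 7 its difference was -0.20 ± 0.13 (adjusted p = 0.386). Dner was not called on either day, and Notch4, Dll3, Dll4 and Dlk2 were too low to be tested. None of the ligand-endocytosis genes tested (Mib1, Mib2 and Neurl1b) was called on either day, and Mib2 was nearest at day 14 (0.36 ± 0.12, limma adjusted p = 0.0624).

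Lfng, a Fringe glycosyltransferase that modifies Notch receptors and alters their response to Jagged and Delta-like ligands, stood at 5.08 and 4.84 RPKM in day 7 control libraries and at 1.97 and 1.61 RPKM with LAMZ. At day 14 it stood at 6.47 and 4.68 RPKM in control and at 0.958 and 1.31 RPKM with LAMZ. The groups did not overlap, and the differences of -1.10 ± 0.17 and -1.62 ± 0.17 were called (limma adjusted p = 0.00572 and 0.000551). Among the genes for receptor glycosylation and furin cleavage it was the 1 of 5 tested that was called. Rfng, a second Fringe enzyme, was at 5.84 to 8.56 RPKM in all libraries.

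Of 8 tested genes for the cutting of the receptor, Adam10, which makes the ligand-dependent cut, was called higher at day 7 (14.7 and 13.1 RPKM in control, 20.1 and 18.4 RPKM with LAMZ; 0.44 ± 0.12, limma adjusted p = 0.0438). It lost this call in 14 of 20 alternatives. Adam17, a related protease, was lower at day 14 (-0.71 ± 0.13, adjusted p = 0.00592). The γ-secretase subunits Psen2, Ncstn, Aph1a, Aph1b and Psenen were not called on either day.

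In the nuclear complex, Rbpj itself was not called, at 6.10 to 7.32 RPKM at day 7 and 8.70 to 12.3 RPKM at day 14 (0.18 ± 0.16 and 0.16 ± 0.16; limma adjusted p = 0.504 and 0.513). Maml2, a Mastermind-like coactivator, stood at 8.80 and 7.53 RPKM in day 7 control libraries and at 3.98 and 4.45 RPKM with LAMZ, and at 8.78 RPKM in both day 14 control libraries and at 2.29 and 3.01 RPKM with LAMZ. Its differences were -0.81 ± 0.14 and -1.43 ± 0.14 (limma adjusted p = 0.00936 and 0.000393). Maml1 and Maml3 were not called. Kat2b, a histone acetyltransferase, was lower at day 14 (-0.96 ± 0.14, adjusted p = 0.00244).

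Of the corepressors, Tle2, of the Groucho family with which HES proteins work, was lower at both days, at 4.99 to 5.99 RPKM in the control libraries and at 1.87 to 2.72 RPKM with LAMZ (-0.84 ± 0.14 and -1.07 ± 0.14; limma adjusted p = 0.00771 and 0.00151). Hdac1, a histone deacetylase, was lower at day 14 (-0.49 ± 0.13, adjusted p = 0.0329), a call lost in 10 of 20 alternatives. Spen, Ncor1, Ctbp1, Tle1, Tle3 and Tle4 were not called.

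Among genes of receptor turnover, Numb, an inhibitor of Notch, was lower at day 14 (4.94 and 5.99 RPKM in control, 2.45 and 3.03 RPKM with LAMZ; -0.79 ± 0.15, limma adjusted p = 0.00767). The Deltex genes Dtx3 (-0.56 ± 0.15, adjusted p = 0.0329) and Dtx4 (-0.83 ± 0.21, adjusted p = 0.0265) were also lower at day 14, and lost their calls in 10 and 7 of 20 alternatives. Fbxw7, a ubiquitin ligase subunit that marks the Notch intracellular domain for degradation, was higher at day 7 (2.67 and 2.21 RPKM in control, 4.83 and 4.28 RPKM with LAMZ; 0.69 ± 0.14, adjusted p = 0.0177) and was not called at day 14 (-0.14 ± 0.14, adjusted p = 0.502).

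Of the other HES family and target genes, 3 of 8 were tested. Bhlhe40, a basic helix-loop-helix repressor of the clock and of differentiation, stood at 8.67 and 12.6 RPKM in day 7 control libraries and at 35.5 and 31.9 RPKM with LAMZ. At day 14 it stood at 14.5 and 18.1 RPKM in control and at 30.8 and 29.3 RPKM with LAMZ. It was higher at both days, by 1.60 ± 0.18 (limma adjusted p = 0.00149) and 0.85 ± 0.18 (adjusted p = 0.0127). Its relative Bhlhe41 was higher at day 7 (0.59 ± 0.14, adjusted p = 0.0349) in a call lost in 12 of 20 alternatives. Hes6, which counteracts Hes1, was higher at day 14 (4.02 and 4.04 RPKM in control, 7.11 and 6.68 RPKM with LAMZ; 0.65 ± 0.17, adjusted p = 0.0261). Hes5 was listed at 0 in all 8 libraries, and Hes2, Hes3, Hes7 and Nrarp, a feedback inhibitor induced by Notch, were too low to be tested.

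Several of these calls were lost when 1 library was left out, while no call named here changed sign in any of the 20 alternatives. Leaving out a library also weakens the test, so a lost call does not show that 1 library carried it. Mfap5, Lfng and, at day 14, Mfap2, Maml2, Tle2, Adam17 and Kat2b were called in all 20, as was Bhlhe40 at day 7. Dlk1 lost its call without the first LAMZ library of the day concerned (limma adjusted p = 0.0605 at day 7 and 0.0652 at day 14), as did Tle2 at day 7 (0.0658). Maml2 at day 7 lost it without the first control or the first LAMZ library of that day (0.0517 and 0.0809), and Numb without the second control or the first LAMZ library of day 14 (0.0543 and 0.0546). Fbxw7 lost it without the second control library or either LAMZ library of day 7 (0.0737, 0.126 and 0.0662), and Bhlhe40 at day 14 without the first control library or either LAMZ library of that day (0.0761, 0.0703 and 0.0594). Dtx4 and Hes6 lost their calls without any 1 of the 4 libraries of day 14, with an adjusted p of up to 0.131. Hdac1 and Dtx3 lost theirs without the second control library or either LAMZ library of day 14 (up to 0.157), and also without either LAMZ library of day 7. Adam10 lost its call without any 1 of the 8 libraries (up to 0.226), and Bhlhe41 without any of the 4 libraries of day 7 or either LAMZ library of day 14 (up to 0.190).

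**Figure D4:**
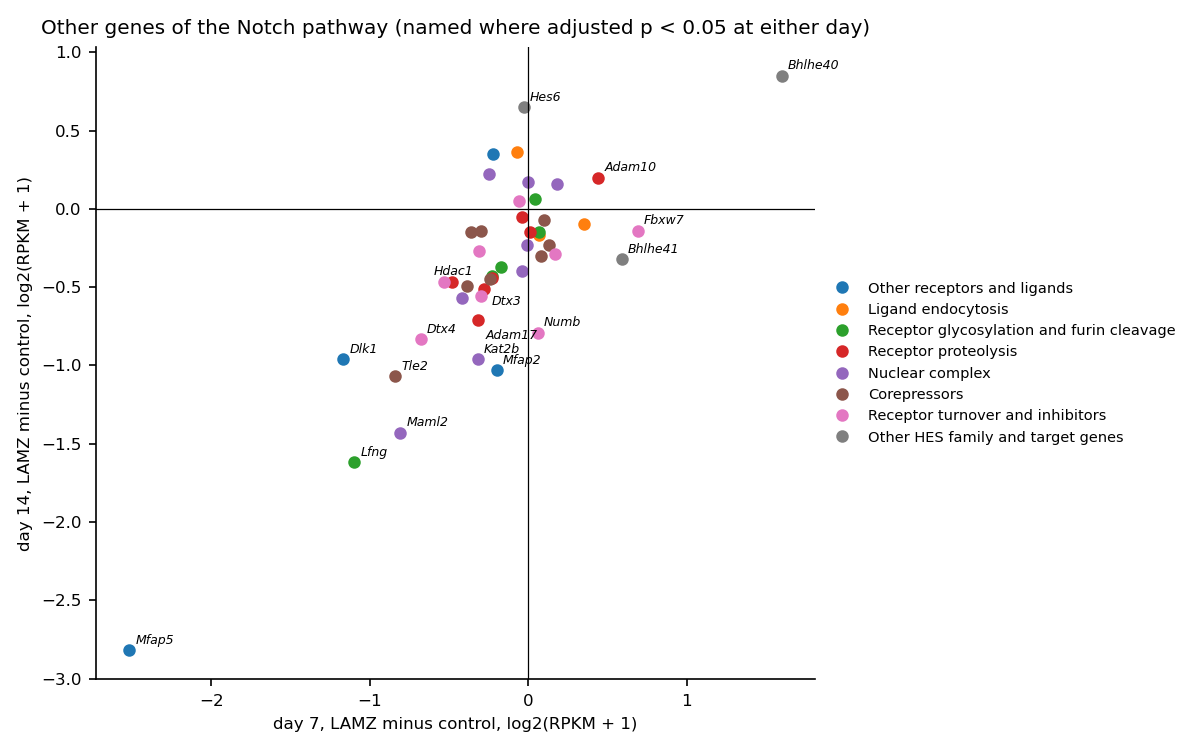
Difference of log2(RPKM + 1) between LAMZ and control at day 7 (horizontal axis) and day 14 (vertical axis) for 46 of the tested further genes of the pathway, coloured by role and named where the adjusted p was under 0.05 on either day. Mfap5 lay furthest down at -2.52 and -2.82, and Bhlhe40 furthest up at 1.60 and 0.85.

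The 8 markers of endothelial cells, well-known users of Notch, summed to 2.83 to 4.79 RPKM in control libraries and to 2.06 to 3.18 RPKM with LAMZ. Pecam1, Kdr, Tie1 and Emcn did not exceed 0.222 RPKM in any library, while Cdh5, Egfl7, Esam and Tek reached 1.05, 1.42, 1.57 and 1.86 RPKM. Of the 2 that were tested, Tek, a receptor tyrosine kinase for angiopoietins, was lower with LAMZ at both days (-1.14 ± 0.22 and -0.91 ± 0.22, limma adjusted p = 0.0153 and 0.0217), and Egfl7 was not called. Tek and Egfl7 both reached 1 RPKM only in control libraries, so their tests describe these levels and support nothing further. The part of this list in the results for the members was not tested. The macrophage list was at least 472 RPKM in control libraries and at most 8.98 RPKM with LAMZ. In control libraries it summed to 472 to 616 RPKM at day 7 and to 1168.3 to 1193.2 RPKM at day 14. From day 7 to day 14 the control means went from 16.5 to 12.8 RPKM for Jag1 and from 3.64 to 3.14 for Notch1. They went from 8.97 to 8.7 RPKM for Notch3 and from 1.01 to 2.24 for Heyl. The part of the macrophage list in the results for Jag1, Notch1, Notch3 and Heyl was not tested. The adipocyte list summed to 1.29 to 57.4 RPKM in control libraries and to 0.573 to 0.632 RPKM with LAMZ. Of its 2 tested genes, Adipoq and Fabp4, 0 were called at day 7 and 2 were called lower at day 14, beside 16.0% of all tested genes. Both reached 1 RPKM only in control libraries, so these calls also describe levels only. At day 14 the control library with 57.4 RPKM of adipocyte markers held 13.3 RPKM of Jag1, 3.09 of Notch1, 7.59 of Notch3 and 2.55 of Heyl. The control library with 10.2 RPKM of these markers held 12.3 RPKM of Jag1, 3.19 of Notch1, 9.82 of Notch3 and 1.93 of Heyl. The part of the adipocyte list in the results for the members was not tested. Of 8 osteoblast markers, 5 were called higher with LAMZ at day 7 and 4 at day 14, with 3 called on both days. Of 5 chondrocyte markers, 3 were called higher at day 7 and 4 at day 14. Over all tested genes, 4.35% were called higher at day 7 and 6.96% at day 14. The chondrocyte marker Matn3 reached 1 RPKM only in LAMZ libraries, and Sox9 was lower at day 14 (-0.66 ± 0.16, limma adjusted p = 0.0225).

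The genes whose levels ran most closely with the leading member of each role were sought among 5604 genes with a mean RPKM of at least 5, by Pearson's r of log2(RPKM + 1) over the 8 libraries. For Jag1 these were Cdc42ep2 (r = 0.997), Cemip (0.996) and Fbln2 (0.995). For Notch2 they were Actr8 (0.946), Cib1 (0.940) and Adcy6 (0.937), and for Hes1 they were Pcx (0.971) and Ing4 (0.959). The 8 points are 4 groups of 2 libraries, and each gene was picked as one of the closest among 5604. In the main tests, though not in every alternative, Notch2 and Hes1 were called in no comparison. Their values therefore also take in shared differences between the 2 libraries of a group, and are not a measure of group differences alone.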

How the data were processed

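RNA sequencing of osteoblastic cells was processed from 8 libraries, 2 in each of 4 groups (day 7 and day 14, control and LAMZ), grouped by their GEO labels. Sequencing by the authors was on an Ion Proton; they assigned reads with CLC Genomics Workbench (version not given in the sources used here; build mm10 in the submitters' processing notes) and deposited RPKM of each gene symbol, scaled within each library. The column header of the first day 7 LAMZ library carries another code (V1) in place of the treatment, and each file was assigned to the sample under which it was deposited. In each file, 4 entries with repeated symbols were dropped, which left 51822, and positions were taken from GENCODE M21 (GRCm38), in which 47465 symbols were found.

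The mapped reads of a library were recovered as the number that turns values of genes with 1 exon into whole reads within 0.01, which held for 95.4% to 97.1% of 769 to 1357 values per library and gave 3463538 to 5832101 reads. For Notch3, Jag2 and Hey2 the gene length was found from the values. Intervals and floors (3 reads) cover counting error only, since reads without molecular identifiers are not independent molecules.

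The 12514 genes that reached 1 RPKM in 2 or more of the 8 libraries were fitted as log2(RPKM + 1) in limma 3.58.1 (R 4.3.3; lmFit and eBayes with trend), with 4 groups in 1 fit, 4 residual degrees of freedom and no covariates. Adjusted p values (Benjamini-Hochberg) cover all tested genes, with a threshold of 0.05. The contrasts were LAMZ against control at each day, their difference, and day 14 against day 7 in each treatment. The script was tested on simulated data. The members, the pathway list and the marker lists were chosen with earlier results of these data known. All members are named, further pathway genes where called on either day, and for the most abundant receptor, ligand and target the 3 genes with the highest correlation; other listed genes are named as not called. Some genes these rules name are not reported here, though the counts over the lists include them. Alternatives were other pseudocounts, filters, scalings, replicate blocks, the libraries compared alone, no trend, each library left out and, added after seeing the data, limma voom on the recovered reads. Motifs were searched on both strands of the RefSeq promoter sequences.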

Additional observations from a re-analysis of the deposited data

How the results depend on the processing

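Of 20 alternative analyses, Jag1 was called lower with LAMZ at day 7 and day 14 in 20 and Heyl at day 14 in the 19 that tested it, whereas Notch1 was called in 13 at day 7 and 11 at day 14, and Notch3 in 2 at day 7 and 16 at day 14. The members called at day 7 numbered 2, and 1 with no filter on low values, with the replicate block within each day and with only the groups compared, and 4 with all libraries scaled to the same sum. With each library left out in turn they numbered 1 to 2. At day 14 there were 4, and 2 after median centring, 6 with the same sum and 2 to 4 with each library left out. For day 14 against day 7 in control there were 0, and 1 with the same sum, with no mean-variance trend and with limma voom on the recovered reads (chosen after seeing the data). In LAMZ there was 1, and 0 with no filter, the same sum, median centring, quantile normalization, the replicate block across all groups and only the groups compared, 2 (Jag1 and Jag2) with voom, and 0 to 1 with each library left out. The difference between the days gave 0 members throughout. Among differences that were not called, Notch2 at day 7 (-0.11) turned to 0.01 after median centring and ran from -0.25 to 0.04 with each library left out, Jag2 at day 7 (0.25) ran from -0.06 to 0.56, and Hey1 at day 14 (-0.17) turned to 0.02 with median centring and 0.08 with quantile normalization.

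Same-numbered libraries did not deviate together (correlation -0.0166 at day 7 and 0.0158 at day 14), so the numbers are not treated as pairs; with the replicate block across all groups, 2 members were called at day 7 and 4 at day 14. Over all genes, 1607 were called at day 7 (624 to 3592 over the alternatives; 527 to 1383 with each library left out), 2878 at day 14 (2171 to 5796; 1512 to 3087), 78 for the difference between the days (0 to 412; 0 to 21), 608 over time in control (0 to 1135; 69 to 453) and 1797 over time in LAMZ (1091 to 2822; 488 to 1890). The scaling sets the balance of directions: 33.9% of the genes called at day 7 and 30.3% at day 14 were higher with LAMZ, but 8.69% and 8.16% with the same sum, and 53.5% and 56.3% after median centring. The same-sum scaling put the median of all genes at -0.31 and -0.43, so that the calls it added for Notch2 and Hes1 at day 14 and Notch3 and Hes1 at day 7 came with a shift of all genes. The replicate block within each day could not give the comparisons over time, and the fit of only the groups compared could not give the difference between the days. Jag2 and Heyl were not among the genes kept by the filter of 1 RPKM in 4 libraries, and Heyl entered the main tests only through control libraries. With 6 to 23 reads per library for Hey1 and fewer for Dll1 and Hey2, depth limits what can be seen of these genes.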
